A study of Mus musculus with 8 samples.

Results

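The genes described here make the fatty acids, sphingolipids, galactolipids and ether lipids of the cell, and 38 of the 18833 genes in the deposited expression matrix of mouse oligodendrocytes were taken. The authors had picked these cells after sequencing, from clusters with high oligodendrocyte markers and without markers of other cell types. The genes were picked by name from general knowledge of lipid synthesis, with earlier results of these data known, and were divided by biochemical role into 7 sub-pathways. Each was read gene by gene and as a sub-pathway mean, in every library and in every oligodendrocyte cluster of the deposited annotation. Of the 38 members, 37 passed the low-value filter for all oligodendrocytes together, and Acsl5 did not.

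The study compared single oligodendrocytes of mice that lack the Fire super-enhancer of Csf1r (labelled FIREdelta/delta KO, here KO) with wild-type animals (WT). The KO brain lacks microglia. All animals were female on a mixed CBA and C57Bl6J background: WT mouse 1 and KO mouse 3 were 1 month and 18 days old, and WT mouse 4 and KO mouse 6 were 1 month and 16 days old. From each of the 4 mice a hippocampus library (both hemispheres) and a cortex library (the rest of the left hemisphere) was made after dissociation with actinomycin D and sorting by scatter and viability. This gives 8 libraries, 4 per genotype, from 2 mice per genotype. In the cell metadata each of the 4 batches held 1 tissue of both genotypes: batch 3 the hippocampus and batch 4 the cortex of mice 1 and 3, batch 5 the hippocampus and batch 6 the cortex of mice 4 and 6. Batch 6 was judged lower in quality when the cells were filtered by the authors. It had the highest median mitochondrial percent, 6.29 in WT and 6.23 in KO, and all batches were given equal weight here. Tissue and batch cannot be told apart, and neither can the age pair and the batch pair. WT values per library are listed in the order hippocampus and cortex of mouse 1, then hippocampus and cortex of mouse 4, and KO values in the order hippocampus and cortex of mouse 3, then hippocampus and cortex of mouse 6.

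The libraries held 2373, 1342, 1047 and 1123 WT cells and 2784, 1074, 1934 and 904 KO cells, 12581 in all. Cells carried a median of 9377, 12332.5, 13243 and 11048 UMIs in the WT libraries and of 9579.5, 13725.5, 10794 and 13250.5 UMIs in the KO libraries. The oligodendrocyte marker Mbp had a UMI in 100% of cells of every library. Csf1r had a UMI in 126, 78, 61 and 114 WT cells and in 2, 1, 3 and 0 KO cells, so each KO library had fewer such cells than each WT library. The 0 of 904 cells of the cortex of mouse 6 allow, at 3 counts, a share of up to 0.332% of cells with a detected Csf1r UMI, which is no limit on the share that express the gene. The annotation has 4 clusters: Oligo1 with 1558 cells, of which 1552 came from KO and 6 from WT libraries, Oligo2 with 2382, Oligo3 with 7579 and Oligo4 with 1062 cells. Oligo1 was therefore read in the KO libraries alone.

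Oligodendrocytes build the myelin sheath, whose dry mass is mostly lipid, and they make much of that lipid themselves. Cytosolic acetyl-CoA is turned into palmitate, which is desaturated, elongated and activated before it enters ceramides and ether lipids. Galactosylceramide and its sulfated form sulfatide are the glycolipids typical of myelin. The median of the 37 tested members was 0.899 UMIs per 10000 against 0.293 for all tested genes, and 29 of them lay above the median gene.

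Promoter sequence is shown for 9 genes, because the values below follow them between clusters: Slc25a1, Acly and Fasn of palmitate synthesis, Elovl1 and Elovl7 of elongation, Ugt8a and Gal3st1 of galactolipid synthesis and Far1 of the ether lipid route, which were higher in Oligo2 than in Oligo3, and Acsl3, which was lower. The 250 bases upstream of the first start listed for a gene in a RefSeq table on build GRCm38.p6 were read for 33 of the 38 members, with Fa2h, Scd1, Scd2, Fads1 and Pex5l not matched there. Only genes whose listed start is at or upstream of the gene start in GENCODE M21 are printed. The listed start of Acaca, for example, lies far inside the gene. The windows are Slc25a1 chr16:17928220-17928469 (minus strand), Acly chr11:100528001-100528250 (minus strand), Fasn chr11:120824548-120824797 (minus strand), Elovl1 chr4:118427843-118428092 (plus strand), Elovl7 chr13:108214154-108214403 (plus strand), Acsl3 chr1:78657575-78657824 (plus strand), Ugt8a chr3:125938653-125938902 (minus strand), Gal3st1 chr11:3983386-3983635 (plus strand) and Far1 chr7:113513584-113513833 (plus strand). Each is written 5′ to 3′ on the strand of the gene, and capitals mark CCAAT boxes (letters CCAAT, or ATTGG on the other strand) and GC boxes (letters GGGCGG, or CCGCCC on the other strand).
Slc25a1: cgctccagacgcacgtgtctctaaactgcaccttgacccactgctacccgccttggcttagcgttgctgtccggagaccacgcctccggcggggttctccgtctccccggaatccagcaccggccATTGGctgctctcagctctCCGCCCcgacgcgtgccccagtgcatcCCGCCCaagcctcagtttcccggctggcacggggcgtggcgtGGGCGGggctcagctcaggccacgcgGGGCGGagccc
Acly: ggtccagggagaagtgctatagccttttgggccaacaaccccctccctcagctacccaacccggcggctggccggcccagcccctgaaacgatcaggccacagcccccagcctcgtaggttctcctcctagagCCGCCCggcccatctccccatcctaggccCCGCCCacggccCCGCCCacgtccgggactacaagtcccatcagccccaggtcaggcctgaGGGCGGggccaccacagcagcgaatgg
Fasn: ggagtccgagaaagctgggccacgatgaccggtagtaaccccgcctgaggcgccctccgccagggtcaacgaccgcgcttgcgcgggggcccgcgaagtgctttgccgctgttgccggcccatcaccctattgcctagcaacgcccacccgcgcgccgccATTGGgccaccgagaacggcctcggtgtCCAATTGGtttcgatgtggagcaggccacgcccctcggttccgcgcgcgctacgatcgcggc
Elovl1: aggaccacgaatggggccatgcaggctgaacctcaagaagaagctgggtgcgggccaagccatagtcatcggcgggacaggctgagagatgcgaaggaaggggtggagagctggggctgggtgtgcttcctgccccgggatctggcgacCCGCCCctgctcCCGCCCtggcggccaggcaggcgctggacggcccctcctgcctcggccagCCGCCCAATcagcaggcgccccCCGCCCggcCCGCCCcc
Elovl7: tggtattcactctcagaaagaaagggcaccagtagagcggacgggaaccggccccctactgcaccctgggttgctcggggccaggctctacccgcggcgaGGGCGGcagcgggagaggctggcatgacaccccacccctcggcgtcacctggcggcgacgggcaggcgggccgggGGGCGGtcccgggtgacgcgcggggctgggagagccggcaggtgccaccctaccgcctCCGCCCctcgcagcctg
Acsl3: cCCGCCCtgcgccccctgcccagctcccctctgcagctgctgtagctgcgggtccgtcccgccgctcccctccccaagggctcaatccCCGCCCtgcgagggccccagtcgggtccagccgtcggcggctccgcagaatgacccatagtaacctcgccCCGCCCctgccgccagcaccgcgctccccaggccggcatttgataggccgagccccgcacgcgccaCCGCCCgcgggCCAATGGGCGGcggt
Ugt8a: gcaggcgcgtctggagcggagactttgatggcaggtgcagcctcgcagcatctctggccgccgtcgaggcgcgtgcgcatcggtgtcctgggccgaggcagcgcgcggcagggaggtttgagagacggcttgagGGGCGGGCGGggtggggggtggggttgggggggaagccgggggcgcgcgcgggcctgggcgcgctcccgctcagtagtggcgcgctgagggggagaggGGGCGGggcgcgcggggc
Gal3st1: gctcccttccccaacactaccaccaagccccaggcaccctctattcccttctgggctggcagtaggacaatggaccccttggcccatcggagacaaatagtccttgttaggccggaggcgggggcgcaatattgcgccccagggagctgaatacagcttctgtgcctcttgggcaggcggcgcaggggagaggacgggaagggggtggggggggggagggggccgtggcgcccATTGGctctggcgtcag
Far1: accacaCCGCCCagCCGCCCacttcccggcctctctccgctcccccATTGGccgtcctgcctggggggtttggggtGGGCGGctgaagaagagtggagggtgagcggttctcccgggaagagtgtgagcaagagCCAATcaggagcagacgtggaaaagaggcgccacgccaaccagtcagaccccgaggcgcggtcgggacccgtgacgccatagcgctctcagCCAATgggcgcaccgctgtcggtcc

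Among the 33 members with a window, 17 (51.5%) held a CCAAT box, against 33.8% of 32851 promoters, and 26 (78.8%) held a GC box, against 32.7%. Among the 27025 first promoters alone, the shares were 34.5% and 32.9%. These promoters were not limited to the tested genes. The 33 windows include some whose listed start lies inside the gene, such as those of Acaca and Tecr. The letters CACGTG stood in 6 windows (18.2%, against 6.02% of all), and TCACNCCAC, where N is any base, stood in 0 (1.05% of all). A match describes the letters of the window only, and its absence says only that the letters are not in these 250 bases. Binding was not measured.

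KO and WT oligodendrocytes differed little in the mean log2 values of the synthesis genes. No member passed a test between the genotypes, and most differed by less than 0.1 in log2 in every batch. This scale, log2 of the value plus 1 averaged over cells, shrinks the ratios of genes with few counts. As mean differences 33 of 37 members lay within 0.1 of 0 in log2, against 25 with edgeR on UMI sums. Pex5l stood apart from the other members: it was lower in KO in every batch, and its 4 KO libraries all lay below its 4 WT libraries. Scd2 and Sgms1 were also lower in KO in every batch, and 6 members of 3 sub-pathways were higher in KO in every batch, by small amounts. The libraries of the genotypes overlapped in the mean of each of the 7 sub-pathways. The plasmalogen mean was lower in KO in every batch, with Pex5l as the member that carried it, since the other 3 genes of that group differed by less than 0.1 in log2.

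In carbon supply and palmitate synthesis Slc25a1, the mitochondrial citrate carrier, had mean log2 levels of 0.47, 0.55, 0.66 and 0.67 in WT and 0.53, 0.59, 0.66 and 0.75 in KO. Acly, which splits citrate into acetyl-CoA, had log2 levels of 0.48, 0.46, 0.73 and 0.58 in WT and 0.59, 0.58, 0.61 and 0.63 in KO. Acss2, which makes acetyl-CoA from acetate, had log2 levels of 0.22, 0.26, 0.44 and 0.39 in WT and 0.29, 0.30, 0.45 and 0.49 in KO. The KO and WT libraries of these genes overlapped, and their lowest libraries of either genotype came from mice 1 and 3. Acaca, which makes malonyl-CoA, had log2 levels of 0.57, 0.67, 0.74 and 0.72 in WT and 0.65, 0.69, 0.75 and 0.83 in KO. Fasn, the synthase that assembles palmitate, had log2 levels of 0.66, 0.80, 0.94 and 0.96 in WT and 0.73, 0.88, 0.92 and 1.05 in KO. Me1, which supplies NADPH from malate, had log2 levels of 0.15, 0.16, 0.21 and 0.19 in WT and 0.27, 0.15, 0.28 and 0.24 in KO. The genotypes overlapped in each. Within batches 3, 4, 5 and 6 the KO minus WT difference in log2 was 0.06, 0.04, 0.00 and 0.08 for Slc25a1, always above 0. Acss2 differed by 0.08, 0.04, 0.01 and 0.09 in log2, and Acaca by 0.07, 0.02, 0.01 and 0.10, in the same order of batches, each with its largest value in batch 6. The window of Slc25a1 shown above holds both kinds of box, that of Acly GC boxes only and that of Fasn CCAAT boxes only.

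In desaturation Scd2, the stearoyl-CoA desaturase most abundant in brain, had log2 levels of 4.62, 4.87, 5.18 and 5.14 in WT and 4.46, 4.83, 4.95 and 5.05 in KO. Its KO minus WT difference per batch was −0.15, −0.04, −0.24 and −0.08 in log2, below 0 in all 4, and the groups overlapped, with the libraries of mice 4 and 6 above those of mice 1 and 3. Scd1, its close paralog, had log2 levels of 0.82, 1.12, 1.29 and 1.28 in WT and 0.79, 1.19, 1.09 and 1.35 in KO. Fads1, which inserts double bonds into polyunsaturated chains, had log2 levels of 0.25, 0.28, 0.39 and 0.41 in WT and 0.19, 0.25, 0.37 and 0.43 in KO. Fads2, the desaturase at the entry of that route, had few counts, with log2 levels of 0.05, 0.04, 0.04 and 0.06 in WT and 0.03, 0.04, 0.05 and 0.05 in KO. Neither Scd1 nor Fads1 nor Fads2 kept 1 sign in the 4 batches.

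For elongation, Elovl1, an elongase of saturated very long chains, had log2 levels of 1.07, 1.06, 1.05 and 1.01 in WT and 1.09, 1.23, 0.97 and 1.05 in KO. Elovl5, which elongates polyunsaturated chains, had log2 levels of 0.60, 0.74, 0.71 and 0.70 in WT and 0.58, 0.84, 0.61 and 0.79 in KO. Elovl6, which turns palmitate into stearate, had levels of 1.49, 1.64, 1.98 and 1.93 UMIs per 10000 in WT and 1.66, 1.58, 1.8 and 1.78 in KO. The KO and WT libraries overlapped in each of these elongases. Elovl7, another elongase of very long chains, had log2 levels of 1.47, 1.52, 1.58 and 1.49 in WT and 1.52, 1.59, 1.65 and 1.71 in KO, and its KO minus WT difference per batch was 0.05, 0.07, 0.07 and 0.21, largest in batch 6. Hsd17b12, the ketoacyl reductase of the elongation cycle, had log2 levels of 0.99, 1.01, 0.91 and 0.81 in WT and 0.98, 1.04, 0.92 and 0.89 in KO. Hacd3, its dehydratase, had log2 levels of 0.32, 0.33, 0.33 and 0.32 in WT and 0.31, 0.34, 0.32 and 0.33 in KO. Elovl7 was thus above WT in all 4 batches, and Hsd17b12 and Hacd3 kept no common sign. Tecr, the reductase that closes the cycle, had log2 levels of 2.68, 2.76, 2.55 and 2.69 in WT and 2.78, 2.94, 2.58 and 2.72 in KO, and its KO minus WT difference was 0.10, 0.18, 0.03 and 0.03 in log2 per batch, above 0 in each.

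Activation to acyl-CoA is carried out by the Acsl enzymes, of which Acsl3, tied to lipid droplets, had log2 levels of 1.41, 1.38, 1.54 and 1.39 in WT and 1.43, 1.34, 1.50 and 1.39 in KO. Acsl1, the long-chain synthetase of wide expression, had log2 levels of 0.62, 0.68, 0.77 and 0.76 in WT and 0.61, 0.70, 0.74 and 0.77 in KO. Acsl4, which prefers arachidonate, had log2 levels of 0.12, 0.12, 0.16 and 0.14 in WT and 0.12, 0.15, 0.14 and 0.14 in KO. The genotypes overlapped throughout these. Acsl6, a brain synthetase, had log2 levels of 0.03, 0.04, 0.04 and 0.05 in WT and 0.02, 0.05, 0.04 and 0.05 in KO. Acsl5, the mitochondrial synthetase that missed the filter, had a mean log2 level of 0.00 at 2 decimals in every library. None of the 4 tested Acsl genes had 1 sign in all 4 batches.

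Ceramide synthesis starts with serine palmitoyltransferase, whose subunit gene Sptlc1 had log2 levels of 0.32, 0.29, 0.35 and 0.30 in WT and 0.30, 0.30, 0.34 and 0.33 in KO. Sptlc2, its catalytic partner, had log2 levels of 0.41, 0.39, 0.40 and 0.38 in WT and 0.38, 0.41, 0.46 and 0.43 in KO. Kdsr, the reductase that follows, had log2 levels of 0.46, 0.50, 0.49 and 0.45 in WT and 0.44, 0.52, 0.43 and 0.48 in KO. The KO and WT libraries overlapped in each gene. Cers2, the synthase of very long chain ceramides, had log2 levels of 2.34, 2.32, 2.40 and 2.35 in WT and 2.30, 2.52, 2.36 and 2.50 in KO, and its KO minus WT difference per batch was −0.04, 0.21, −0.04 and 0.16. Cers4, a synthase of long chain ceramides, had log2 levels of 0.12, 0.11, 0.08 and 0.08 in WT and 0.07, 0.08, 0.11 and 0.10 in KO. Cers5, which makes palmitoyl ceramide, had log2 levels of 0.28, 0.26, 0.30 and 0.28 in WT and 0.28, 0.28, 0.31 and 0.33 in KO. Cers2 was higher in KO in both cortex batches and slightly lower in both hippocampus batches. Degs1, which desaturates dihydroceramide, had log2 levels of 2.01, 2.03, 1.84 and 1.89 in WT and 1.93, 2.13, 1.78 and 1.89 in KO. Fa2h, which hydroxylates the fatty acids of myelin galactolipids, had log2 levels of 2.22, 2.41, 2.70 and 2.69 in WT and 2.42, 2.63, 2.59 and 2.77 in KO. Sgms1, a sphingomyelin synthase, had log2 levels of 0.18, 0.22, 0.12 and 0.16 in WT and 0.15, 0.20, 0.11 and 0.12 in KO, with KO minus WT at −0.03, −0.02, −0.02 and −0.04 per batch. Sgms1 was below WT in every batch by a few hundredths of a log2 unit, and Fa2h was above WT in 3 of 4.

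Galactolipid synthesis rests on Ugt8a, which makes galactosylceramide, with log2 levels of 3.23, 3.29, 3.50 and 3.32 in WT and 3.40, 3.43, 3.36 and 3.35 in KO. Gal3st1, which sulfates it to sulfatide, had log2 levels of 1.44, 1.51, 1.37 and 1.46 in WT and 1.59, 1.36, 1.47 and 1.55 in KO. Ugcg, which makes glucosylceramide instead, had log2 levels of 0.11, 0.13, 0.15 and 0.14 in WT and 0.12, 0.11, 0.15 and 0.15 in KO. Ugt8a and Gal3st1 each had 3 batches above 0 and 1 below, and Ugcg differed little.

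In the plasmalogen group Gnpat, the acyltransferase that opens ether lipid synthesis, had log2 levels of 0.18, 0.22, 0.25 and 0.25 in WT and 0.20, 0.26, 0.23 and 0.24 in KO. Agps, which sets the ether bond, had log2 levels of 0.32, 0.36, 0.39 and 0.38 in WT and 0.37, 0.35, 0.40 and 0.41 in KO. Far1, which supplies the fatty alcohol, had log2 levels of 0.52, 0.65, 0.65 and 0.63 in WT and 0.59, 0.69, 0.65 and 0.69 in KO, with KO minus WT at 0.07, 0.05, 0.00 and 0.05 per batch. These enzymes of the route itself overlapped between the genotypes, and only Far1 kept 1 sign. Pex5l encodes a PEX5-related protein also known as a partner of HCN channels and is not an enzyme of the route. Its log2 levels were 2.97, 2.82, 2.27 and 2.24 in WT and 2.07, 2.20, 1.91 and 1.98 in KO. KO minus WT was −0.89, −0.61, −0.37 and −0.25 in log2 per batch, and every KO library lay below every WT library. The WT libraries of mouse 1 were the highest and the WT libraries of mouse 4 came close to the KO libraries.

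**Figure D1:**
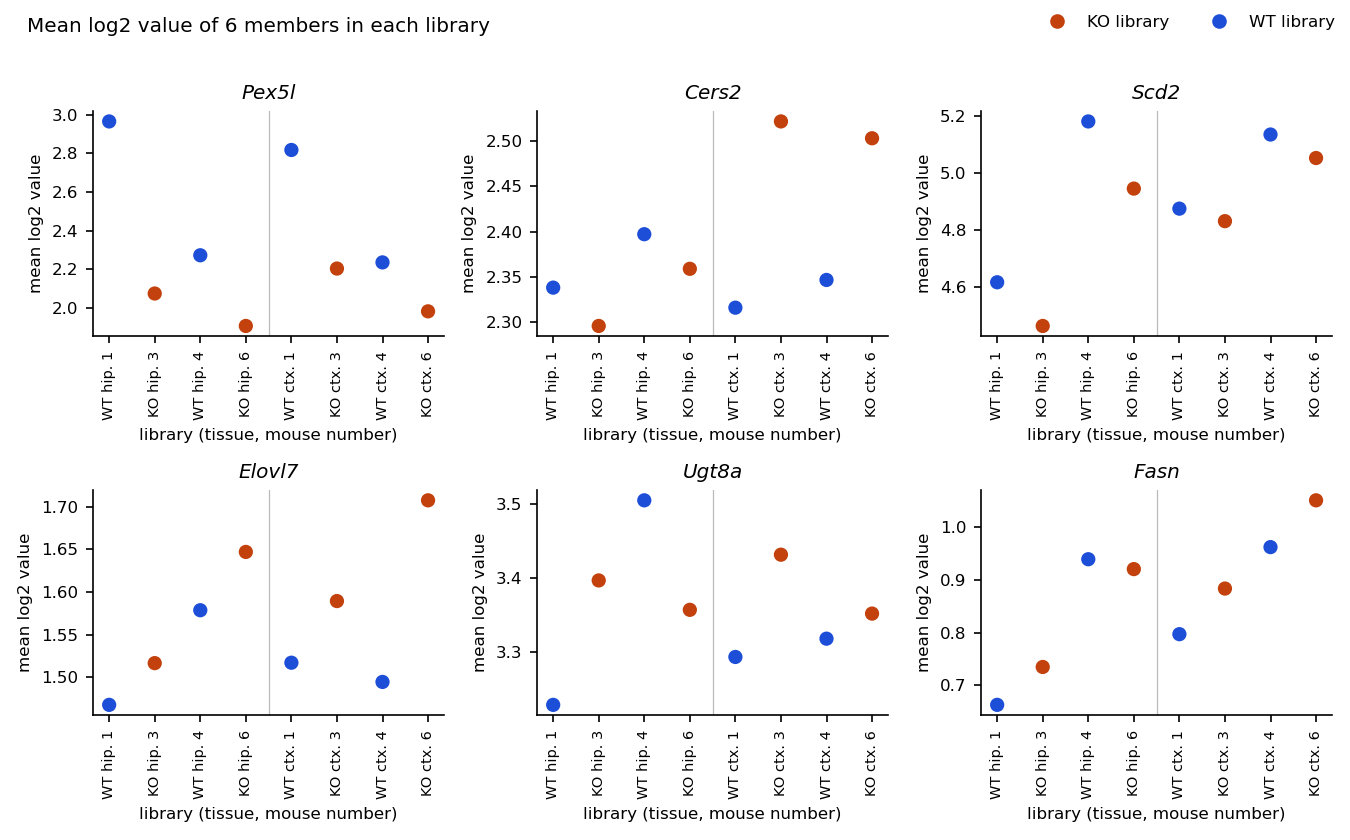
Mean log2 value of 6 members in each library (red, KO; blue, WT). Pex5l is the member whose KO points all lie below its WT points; in Scd2 the libraries of mice 4 and 6 lie above those of mice 1 and 3.

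**Figure D2:**
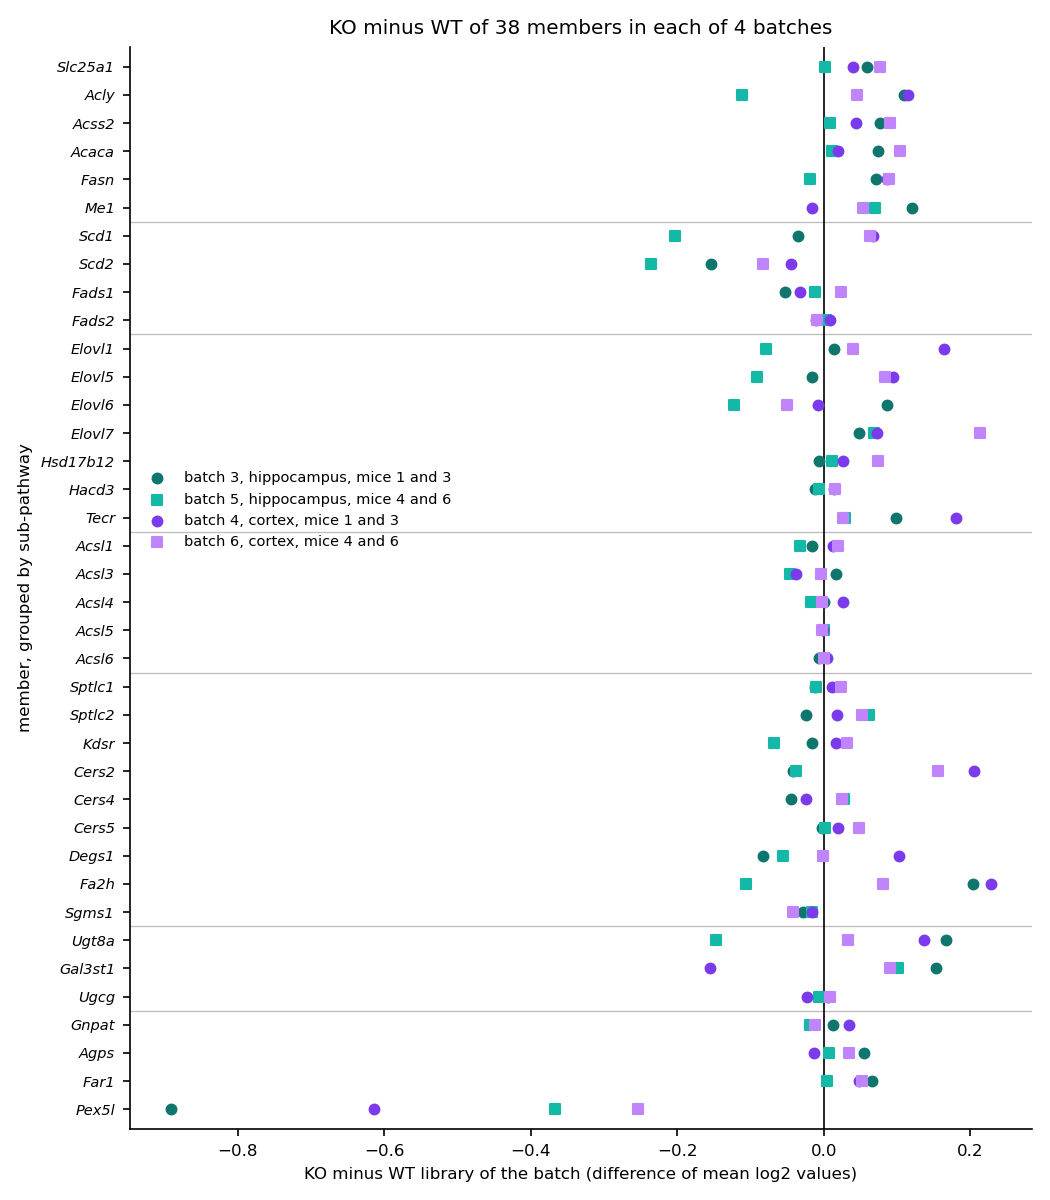
KO minus WT in log2 for the 38 members, 1 point per batch, grouped by sub-pathway. Most points lie close to 0, and Pex5l is the lowest member in each of the 4 batches.

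KO was above WT in all 4 batches for 6 of 37 tested members (13.4% of 9257 tested genes did so), namely Slc25a1, Acss2, Acaca, Elovl7, Tecr and Far1. It was below WT in all 4 for 3 members (9.9% of genes), namely Scd2, Sgms1 and Pex5l. With the groups fully apart, 0 members had KO above WT (2.78% of genes) and 1, Pex5l, had KO below WT (1.35% of genes). Members thus kept 1 sign about as often as genes in general. On mouse means limma called 0 of 9257 genes (0%) and 0 members, with 209 genes and 1 member, Cers2, at unadjusted p under 0.05. These counts belong to the fit without the age and batch pair. With the age pair as a block limma had 970 genes at unadjusted p under 0.05. With a batch term and mouse as a random block it had 1294, so the number at that level depended on the fit. edgeR on UMI sums called 8 genes (0.0864%) and 0 members. Cers2 stood at difference 0.07 in log2, SE 0.02, limma adjusted p = 1.00. Pex5l stood at difference −0.53 in log2, SE 0.26, limma adjusted p = 1.00, and edgeR gave −0.60 in log2 with adjusted p = 1.00. At 2 mice per genotype the smallest exact permutation p is 0.333, so no member could pass such a test. With 1 mouse left out the difference in log2 ran from −0.85 to −0.21 for Pex5l, from 0.04 to 0.16 for Elovl7 and from 0.01 to 0.07 for Far1. Leaving out 1 mouse turned the direction for Slc25a1, Acss2, Acaca, Tecr, Scd2 and Sgms1, whose ranges stand with the processing alternatives. Such a fit also sets mice of different age and batch pairs against each other.

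The sub-pathway means showed the same closeness. Palmitate synthesis had mean log2 levels of 0.43, 0.48, 0.62 and 0.59 in WT and 0.51, 0.53, 0.61 and 0.66 in KO. Plasmalogen synthesis had 1.00, 1.01, 0.89 and 0.87 in WT and 0.81, 0.88, 0.80 and 0.83 in KO, and its KO minus WT difference was −0.12 (−0.19 to −0.04), mean and range of 4 batches. Desaturation had mean log2 levels of 1.43, 1.58, 1.73 and 1.72 in WT and 1.37, 1.58, 1.61 and 1.72 in KO. In each the groups overlapped, and only the plasmalogen mean was below WT in all 4 batches.

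Within single clusters no member passed a test between the genotypes, and the members with 1 sign in all batches were partly others than in all cells. Pex5l was lower in KO in all 4 batches of Oligo2, of Oligo3 and of Oligo4, so the lower level was also seen outside the KO-rich Oligo1. In Oligo3 its differences were −0.49, −0.50, −0.01 and −0.12 in log2 over batches 3, 4, 5 and 6, close to 0 in batch 5. There the KO libraries of mouse 3 lay above the WT libraries of mouse 4, so the direction depended on which mice were compared. Scd2 was lower in KO throughout Oligo2 and Oligo4, and Hsd17b12 was higher in KO throughout Oligo2 and Oligo3. For Scd2 in Oligo4 the libraries of mice 4 and 6 all lay above those of mice 1 and 3, by 0.22 to 0.71 in log2. Its lower KO level there, −0.18 in log2 on average, thus held within batches and not between every KO and WT mouse. Cers5 was the only member to separate the genotypes within a cluster, in Oligo4.

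When Oligo1 was left aside, Pex5l differed by −0.69, −0.50, −0.22 and −0.18 in log2 over the batches. In Oligo2 its log2 levels were 2.54, 2.32, 2.17 and 2.06 in WT and 1.97, 2.12, 1.88 and 1.88 in KO, and in Oligo3 they were 3.13, 3.01, 2.49 and 2.41 in WT and 2.64, 2.50, 2.48 and 2.29 in KO. In Oligo4 Pex5l had log2 levels of 2.03, 1.97, 1.26 and 1.11 in WT and 1.08, 1.14, 0.91 and 0.93 in KO. In each cluster the WT libraries of mouse 1 were highest, and on average the genotypes were closer in mice 4 and 6 than in mice 1 and 3. Elovl7 differed by 0.07, 0.09, 0.09 and 0.18 in log2 over the batches of Oligo3, and Hsd17b12 by 0.03, 0.05, 0.01 and 0.04. Cers5 in Oligo4 had log2 levels of 0.27, 0.29, 0.27 and 0.29 in WT and 0.29, 0.36, 0.35 and 0.39 in KO, with every KO library above every WT library before rounding. Scd1 in Oligo4 differed by −0.08, −0.17, −0.36 and −0.09 in log2, and Acsl3 by −0.14, −0.26, −0.06 and −0.10. Both were below 0 in all 4 batches of Oligo4 and had both signs in Oligo2 and in Oligo3.

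In the pooled Oligo2 to Oligo4 cells, 4 members were higher in KO in all 4 batches (10.3% of genes) and 3 lower (8.31%): Elovl7, Hsd17b12, Tecr and Far1 against Scd2, Sgms1 and Pex5l. The groups were fully apart for 0 members in either direction (1.48% and 0.951% of genes). Oligo2 had 3 members higher (8.34% of genes), Acss2, Fasn and Hsd17b12, and 2 lower (8.05%), Scd2 and Pex5l, with 0 apart above (1.44%) and 0 below (1.13%). Oligo3 had 3 members higher (8.43% of genes), Elovl7, Hsd17b12 and Far1, and 2 lower (8.48%), Sgms1 and Pex5l, with 0 apart above (1.14%) and 0 below (0.788%). Oligo4 had 2 members higher (7.58% of genes), Acss2 and Cers5, and 4 lower (8.87%), Scd1, Scd2, Acsl3 and Pex5l, with Cers5 apart above (1.77%) and 0 below (1.8%).

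Within Oligo2, where 35 members were tested (Acsl5, Acsl6 and Fads2 missed the filter), limma called 0 of 9292 genes (0%), with 139 genes and 0 members at unadjusted p under 0.05, and edgeR called 4 genes (0.043%) and 0 members. Within Oligo3, with 37 members tested, limma called 0 of 9135 genes (0%), with 103 genes and 0 members at unadjusted p under 0.05, and edgeR called 3 genes (0.0328%) and 0 members. Within Oligo4, with 36 members tested (not Acsl5 or Acsl6), limma called 0 of 9381 genes (0%), with 282 genes and 0 members at unadjusted p under 0.05, and edgeR called 25 genes (0.266%) and 0 members. Pex5l in Oligo4 stood at difference −0.58 in log2, SE 0.30, limma adjusted p = 1.00, and edgeR gave −0.96 in log2 with adjusted p = 0.401. The fewest cells of a library in a cluster were 38, in Oligo4.

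Between clusters many synthesis genes differed with 1 sign in all 8 libraries, several of them by over 0.3 in log2. Oligo2 had higher levels than Oligo3 of all 6 palmitate genes, of the elongases Elovl1, Elovl5 and Elovl7 and of the galactolipid genes Ugt8a and Gal3st1, and lower levels of Pex5l, Fads1, Acsl3 and Elovl6. Oligo4 held more Acsl3, Cers2 and Degs1 than either, and less Scd1, Scd2, Elovl5 and Pex5l. The clusters were defined on the expression of the same cells, so these differences are descriptions and were not tested. The clusters also differed in depth: the median UMIs per cell were highest in Oligo4 and lowest in Oligo3 in every library, and ran over the libraries from 8883 to 13178.5 in Oligo3, 10202.5 to 14282.5 in Oligo2 and 10956.5 to 16160 in Oligo4. After thinning all cells to 5000 UMIs, 17 of the 25 members with 1 sign for Oligo2 against Oligo3 kept it (68%, against 61.4% of such genes), and 0 turned.

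Ugt8a, for galactosylceramide, had Oligo2 minus Oligo3 differences in log2 of 0.40, 0.46, 0.40 and 0.45 in WT and 0.44, 0.40, 0.38 and 0.45 in KO. Gal3st1, the sulfatide enzyme, differed in log2 by 0.33, 0.44, 0.37 and 0.37 in WT and 0.40, 0.42, 0.34 and 0.39 in KO. Fa2h, which hydroxylates their fatty acids, differed in log2 by 0.30, 0.33, 0.31 and 0.24 in WT and 0.30, 0.25, 0.27 and 0.29 in KO. These enzymes of myelin galactolipids were all higher in Oligo2, with no library near 0. Among the elongases the Oligo2 minus Oligo3 difference, as mean and range over 8 libraries in log2, was 0.35 (0.27 to 0.42) for Elovl7, 0.34 (0.29 to 0.38) for Elovl5 and 0.25 (0.15 to 0.35) for Elovl1. Elovl6 was lower in Oligo2 in all 8 libraries, by −0.09 (−0.17 to −0.01) in log2, and Hsd17b12, Hacd3 and Tecr had both signs. All 6 genes of carbon supply and palmitate synthesis were higher in Oligo2 in every library. Acaca differed by 0.21 (0.14 to 0.26) in log2, Acss2 by 0.20 (0.10 to 0.33) and Slc25a1 by 0.19 (0.16 to 0.24). Acly differed by 0.16 (0.11 to 0.25) in log2, Fasn by 0.14 (0.03 to 0.24) and Me1 by 0.13 (0.08 to 0.18). Far1 of the ether lipid route differed by 0.22 (0.15 to 0.25) in log2. Of the windows shown above, those of Slc25a1, Fasn, Elovl1, Gal3st1 and Far1 hold a CCAAT box, as does that of Acsl3, which was lower in Oligo2. Pex5l and Fads1 were lower as well. Pex5l differed in log2 by −0.59, −0.69, −0.32 and −0.35 in WT and −0.68, −0.39, −0.60 and −0.41 in KO, Oligo2 minus Oligo3. Fads1 differed by −0.23 (−0.38 to −0.10) in log2 and Acsl3 by −0.18 (−0.33 to −0.02). Desaturation as a group kept no common sign over the libraries.

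Oligo2 was above Oligo3 in all 8 libraries for 18 of 37 members (15.8% of genes) and below for 7 (9.96% of genes). The members above were Slc25a1, Acly, Acss2, Acaca, Fasn, Me1, Elovl1, Elovl5, Elovl7, Acsl1, Sptlc1, Sptlc2, Kdsr, Fa2h, Ugt8a, Gal3st1, Agps and Far1, and those below were Fads1, Fads2, Elovl6, Acsl3, Acsl6, Degs1 and Pex5l. As sub-pathway means, Oligo2 minus Oligo3 in log2 was 0.27 (0.25 to 0.31) for galactolipids, 0.17 (0.12 to 0.23) for palmitate synthesis, 0.14 (0.11 to 0.17) for elongation and 0.05 (0.03 to 0.06) for ceramides. The plasmalogen mean lay the other way at −0.05 (−0.11 to −0.00) in log2 through Pex5l, while Agps and Far1 were higher in Oligo2 in all 8 libraries. Summed markers of newly formed oligodendrocytes, led by Bcas1, were higher in Oligo2, as the 18 members were and the 7 were not. Their level per library was 7.39 to 8.09 UMIs per 10000 in Oligo2, 3.87 to 4.37 in Oligo3 and 3.31 to 4.23 in Oligo4. Their part in the result was not tested.

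**Figure D3:**
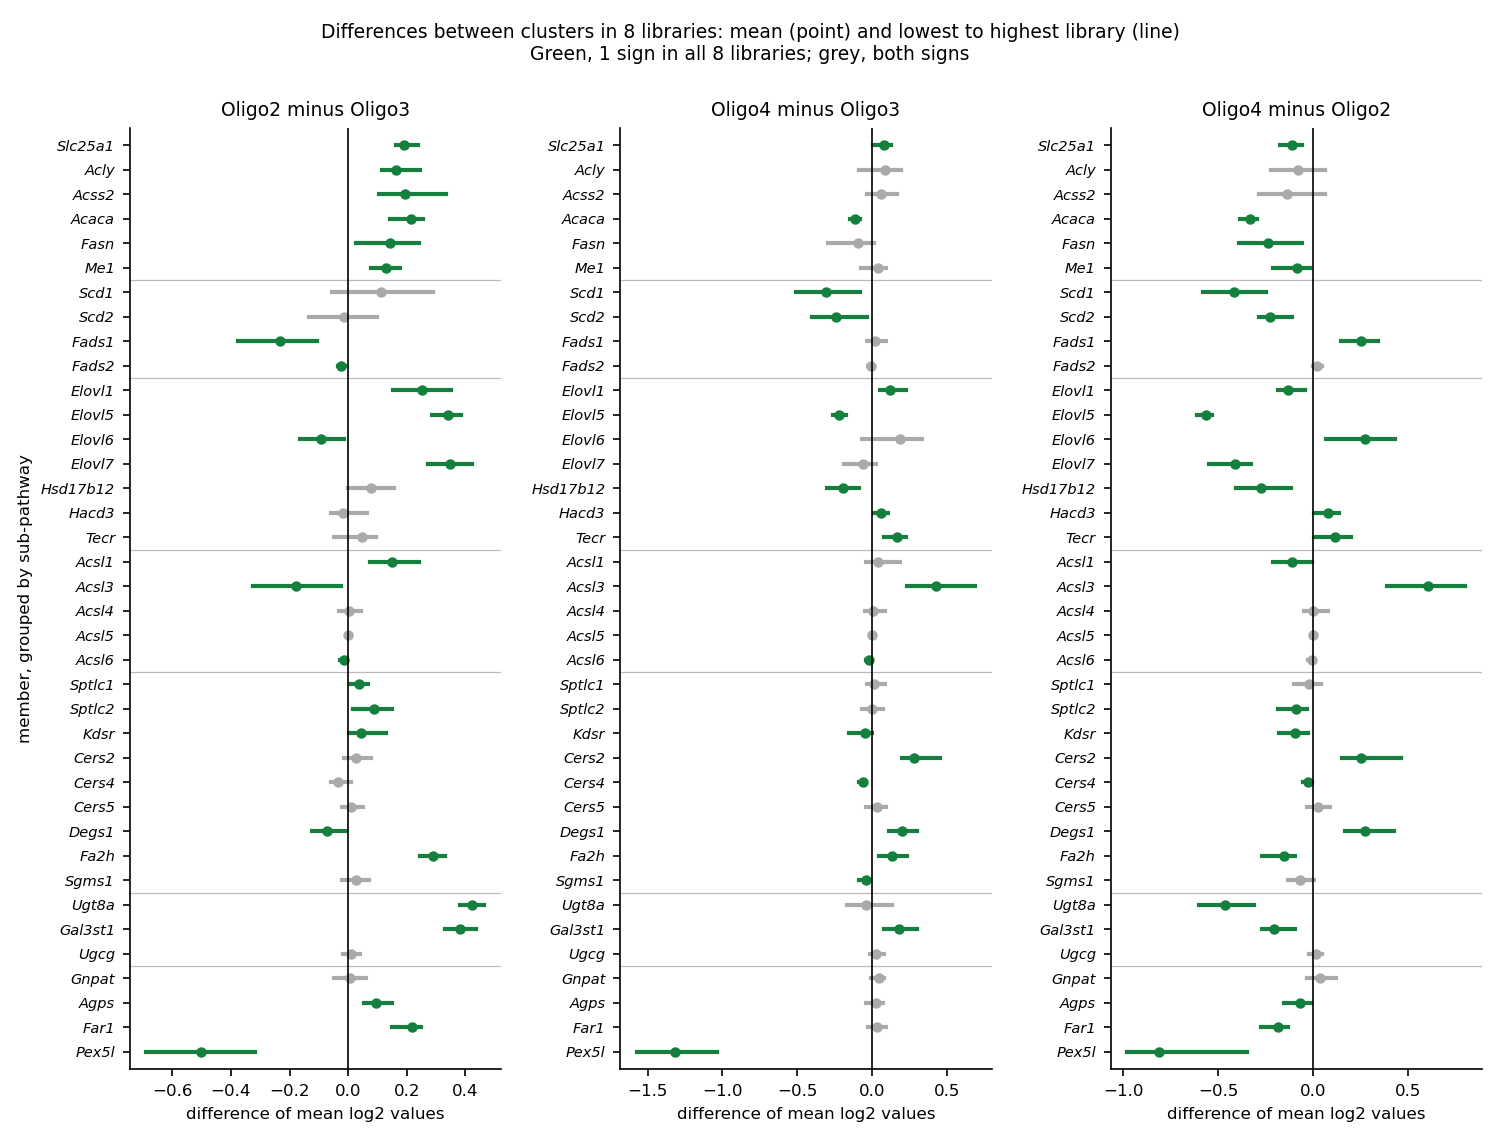
Differences in log2 between Oligo2, Oligo3 and Oligo4 for each member: mean of 8 libraries and range. Ugt8a, Gal3st1, Elovl5, Elovl7 and Fa2h stand to the right in Oligo2, Acsl3 and Cers2 to the right in Oligo4, and Pex5l to the left in both.

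Oligo4 minus Oligo3 for Acsl3, the synthetase tied to lipid droplets, was 0.69, 0.51, 0.37 and 0.45 in WT and 0.52, 0.23, 0.32 and 0.36 in KO in log2. Cers2, the ceramide synthase, differed in log2 by 0.32, 0.45, 0.20 and 0.29 in WT and 0.23, 0.24, 0.24 and 0.25 in KO. Pex5l differed in log2 by −1.10, −1.03, −1.23 and −1.30 in WT and −1.56, −1.37, −1.57 and −1.36 in KO. Acsl3 and Cers2 were higher and Pex5l lower in Oligo4 in every library, and Pex5l differed by more than any other member. Summed astrocyte markers, led by Slc1a2, were lower in Oligo4, as Pex5l was and Acsl3 and Cers2 were not. Their level per library was 0.927 to 2.07 UMIs per 10000 in Oligo4 and 2.34 to 3.13 in Oligo3. Their part in the result was not tested. Degs1, the dihydroceramide desaturase, differed by 0.20 (0.11 to 0.30) in log2, mean and range of 8 libraries, and Tecr by 0.17 (0.08 to 0.23). Scd1 differed by −0.31 (−0.51 to −0.08) in log2 and Scd2 by −0.24 (−0.40 to −0.03). Elovl5 differed by −0.22 (−0.26 to −0.17) in log2 and Hsd17b12 by −0.20 (−0.30 to −0.09). Ceramide enzymes were thus split, with Cers2, Degs1 and Fa2h higher and Kdsr, Cers4 and Sgms1 lower in Oligo4.

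Oligo4 was above Oligo3 in all 8 libraries for 9 of 37 members (9.36% of genes), Slc25a1, Elovl1, Hacd3, Tecr, Acsl3, Cers2, Degs1, Fa2h and Gal3st1. It was below for 10 (8.42% of genes), Acaca, Scd1, Scd2, Elovl5, Hsd17b12, Acsl6, Kdsr, Cers4, Sgms1 and Pex5l. As sub-pathway means, Oligo4 minus Oligo3 in log2 was 0.09 (0.05 to 0.13) for activation, 0.06 (0.03 to 0.09) for ceramides, −0.13 (−0.24 to −0.01) for desaturation and −0.30 (−0.39 to −0.23) for plasmalogens. Each of these had 1 sign in all 8 libraries. Pex5l alone carried the plasmalogen mean, since the route enzymes Gnpat, Agps and Far1 differed by 0.04, 0.02 and 0.03 in log2 on average.

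Against Oligo2, Oligo4 was above in all 8 libraries for 7 members (11.5% of genes), Fads1, Elovl6, Hacd3, Tecr, Acsl3, Cers2 and Degs1, and below for 20 (13.1% of genes). Elovl5 had Oligo4 minus Oligo2 differences in log2 of −0.55, −0.54, −0.56 and −0.60 in WT and −0.53, −0.57, −0.54 and −0.61 in KO. Acsl3 differed the other way, by 0.80, 0.74, 0.39 and 0.72 in WT and 0.72, 0.56, 0.44 and 0.50 in KO in log2. Both were uniform in sign, and Elovl5 was nearly equal in all libraries. Ugt8a differed by −0.46 (−0.60 to −0.31) in log2 and Elovl7 by −0.41 (−0.55 to −0.33). Elovl6, from palmitate to stearate, differed by 0.28 (0.07 to 0.43) in log2 and Fads1 by 0.26 (0.15 to 0.34). Acaca differed by −0.33 (−0.39 to −0.29) in log2 and Fasn by −0.24 (−0.39 to −0.06). Galactolipid, palmitate and elongation genes were lower as groups in Oligo4 than in Oligo2, at −0.22 (−0.28 to −0.15), −0.16 (−0.25 to −0.11) and −0.13 (−0.20 to −0.09) in log2. Desaturation was lower in every library as well. The plasmalogen mean was 0.53 to 0.81 in Oligo4 and 0.82 to 0.96 in Oligo2. Pex5l had the largest difference of the members, −0.68 in log2 on average in WT and −0.95 in KO. Agps and Far1 were also lower in every library. Activation was higher, at 0.10 (0.03 to 0.15) in log2. Summed markers of newly formed oligodendrocytes, led by Bcas1, were 3.31 to 4.23 UMIs per 10000 in Oligo4 and 7.39 to 8.09 in Oligo2, and summed astrocyte markers, led by Slc1a2, were 0.927 to 2.07 and 2.06 to 2.90. Their part in the result was not tested.

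**Figure D4:**
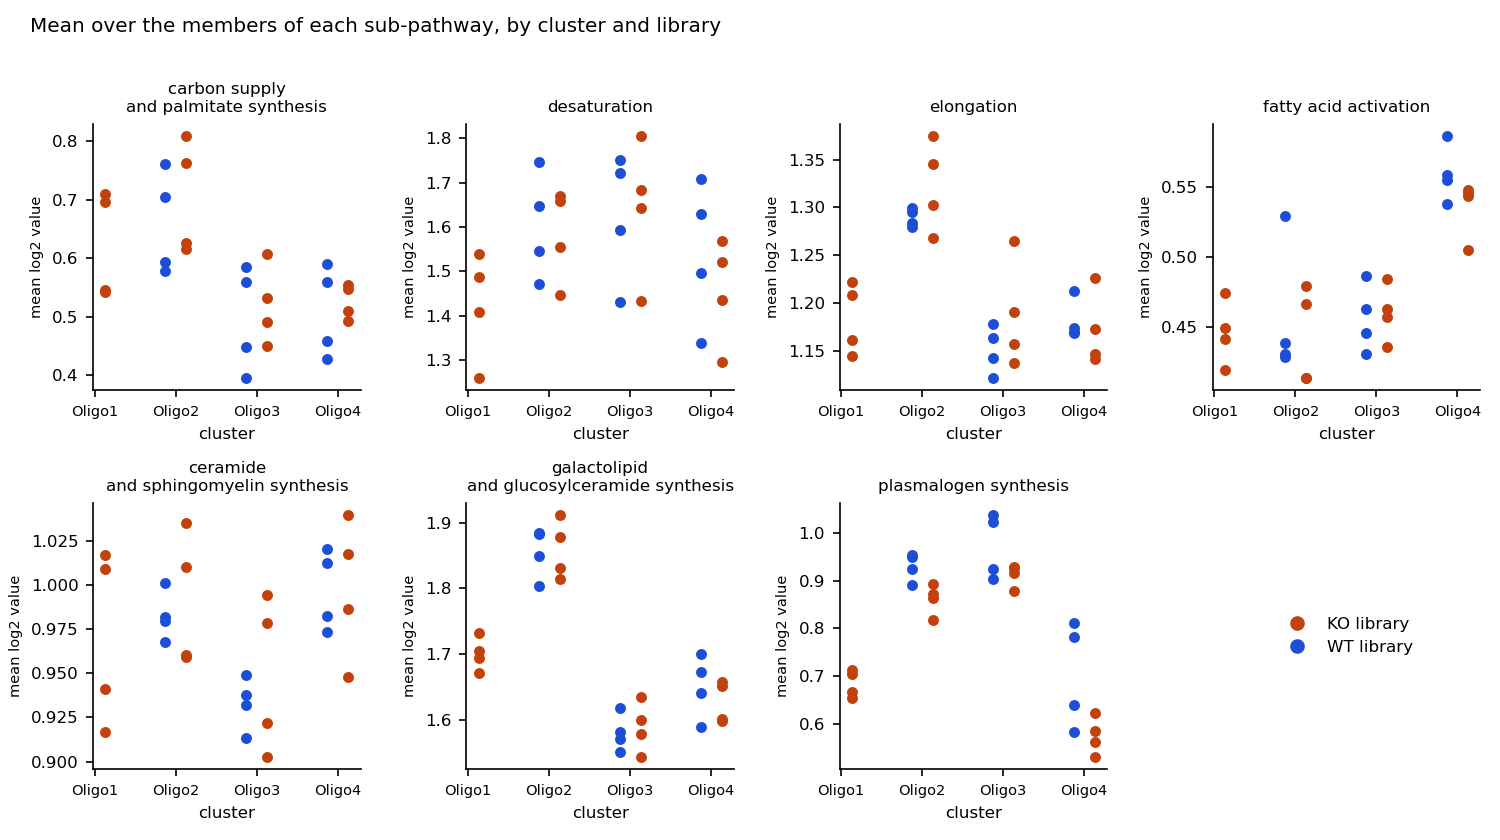
Mean log2 value of each sub-pathway by cluster, 1 point per library (red, KO; blue, WT). Palmitate, elongation and galactolipid synthesis are highest in Oligo2, and activation in Oligo4, in both genotypes. The low plasmalogen mean in Oligo4 comes mainly from Pex5l, and against Oligo3 not from Gnpat, Agps or Far1.

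Oligo1, the cluster nearly confined to KO libraries, had lower Pex5l, Scd1, Scd2 and Fads1 and higher Gal3st1, Cers2, Cers5 and Degs1 than the other KO cells pooled, while Ugt8a and Fa2h were slightly lower. Most of these differences depended on the cluster Oligo1 was set against. Against Oligo4 alone, Pex5l and Scd1 were higher in Oligo1 and Cers2, Cers5 and Degs1 lower, in all 4 KO libraries. Slc25a1, Acly, Acss2 and Gal3st1 lay below Oligo2 and above Oligo3. Summed astrocyte markers, led by Slc1a2, were 1.42 to 2.13 UMIs per 10000 in Oligo1, 2.06 to 2.90 in Oligo2, 2.34 to 3.13 in Oligo3 and 0.927 to 2.07 in Oligo4. Summed markers of newly formed oligodendrocytes, led by Bcas1, were 4.26 to 4.98 in Oligo1, 7.39 to 8.09 in Oligo2, 3.87 to 4.37 in Oligo3 and 3.31 to 4.23 in Oligo4. Their part in the result was not tested.

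Pex5l had Oligo1 log2 levels of 1.63, 1.47, 1.39 and 1.37, and Oligo1 minus Oligo2 to Oligo4 was −0.64, −0.85, −0.67 and −0.69 in log2 in the 4 KO libraries. Gal3st1 had Oligo1 log2 levels of 1.68, 1.55, 1.60 and 1.74, with differences of 0.14, 0.23, 0.16 and 0.21. Cers2 had Oligo1 log2 levels of 2.34, 2.62, 2.40 and 2.61, with differences of 0.07, 0.11, 0.06 and 0.12. Every library showed the lower Pex5l and the higher Gal3st1 and Cers2. Elovl5 had Oligo1 minus Oligo2 to Oligo4 differences of −0.11, −0.19, −0.11 and −0.17 in log2, and Elovl1 of −0.05, −0.19, −0.09 and −0.12. Fads1 differed in log2 by −0.08, −0.11, −0.16 and −0.15 and Degs1 by 0.05, 0.08, 0.07 and 0.09. Ugt8a differed in log2 by −0.13, −0.11, −0.06 and −0.04 and Fa2h by −0.11, −0.07, −0.06 and −0.03. Elovl1, Elovl5, Fads1, Ugt8a and Fa2h were lower in Oligo1 and Degs1 was higher, each in all 4 libraries, while Elovl6, Elovl7 and Fads2 had both signs. As a sub-pathway, desaturation differed by −0.18 (−0.20 to −0.16) in log2, plasmalogen synthesis by −0.18 (−0.20 to −0.14) and palmitate synthesis by 0.06 (0.01 to 0.11). The plasmalogen value again came from Pex5l, as Gnpat, Agps and Far1 differed by 0.01, 0.00 and −0.00 in log2 on average.

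Oligo1 was above the other clusters in all 4 KO libraries for 6 of 37 members (19% of genes), Acly, Me1, Cers2, Cers5, Degs1 and Gal3st1, and below for 10 (16.3% of genes), Scd1, Scd2, Fads1, Elovl1, Elovl5, Kdsr, Fa2h, Sgms1, Ugt8a and Pex5l. Against Oligo2 alone, 9 members were above (18.1% of genes) and 20 below (19.3%), the latter with Slc25a1, Acly, Acss2, Acaca, Ugt8a and Gal3st1. Against Oligo3 alone, 10 were above (21.9% of genes), with Slc25a1, Acly, Acss2 and Gal3st1, and 8 below (15.7%). Against Oligo4 alone, 10 were above (15.9% of genes), among them Pex5l and Scd1, and 11 below (16.6%), among them Acsl3, Cers2 and Degs1. With 2 KO mice and clusters drawn on the same cells, these are descriptions. With only 1 of the mice, 25 or 29 members had 1 sign (63.1% and 65.3% of genes) against 16 with both (35.3% of genes), since fewer libraries had to share it.

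**Figure D5:**
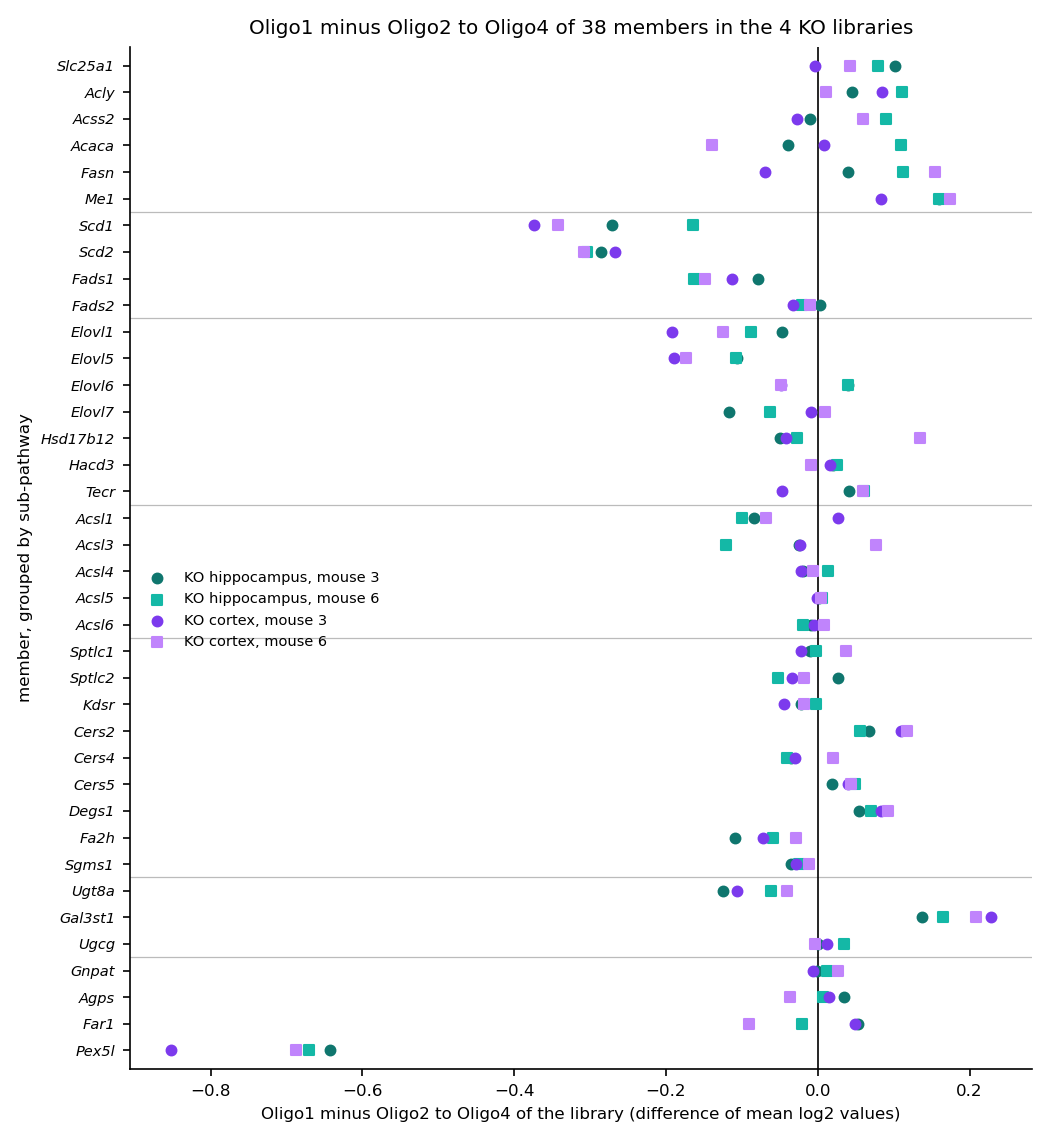
Oligo1 minus Oligo2 to Oligo4 in log2 for the 38 members in the 4 KO libraries. Pex5l, Scd1 and Scd2 lie to the left and Gal3st1 and Me1 to the right in every library.

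Hippocampus and cortex differed modestly, and no member passed a test. More members were lower in hippocampus than higher, in shares close to those of all genes. Tecr and Fasn were lower and Acsl3 higher in the hippocampus of every mouse. The sum of the neuronal markers, led by Meg3, was higher there as well. It was 0.184 to 0.603 UMIs per 10000 in the hippocampus of the 4 mice and 0.0995 to 0.153 in the cortex. Meg3 and Syt1 were higher in the hippocampus of every mouse. Rbfox3 was lower there in mice 4 and 6, and Snap25 in mouse 4. The median mitochondrial percent per library was 4.54 to 5.07 in the hippocampus and 5.36 to 6.29 in the cortex. The part of either in the result was not tested. Tecr had hippocampus minus cortex differences of −0.08, −0.16, −0.14 and −0.13 in log2 in mice 1, 3, 4 and 6. Acsl3 differed by 0.04, 0.09, 0.15 and 0.11 in log2 and Fasn by −0.13, −0.15, −0.02 and −0.13. Degs1 differed by −0.01, −0.20, −0.05 and −0.11 in log2, and Slc25a1 by −0.07, −0.06, −0.02 and −0.09. Within each of these genes all 4 mice shared a sign. Hippocampus was above cortex in all 4 mice for 2 members (6.78% of genes), Acsl3 and Sptlc1, and below for 8 (18.6% of genes), Slc25a1, Fasn, Fads1, Tecr, Acsl6, Degs1, Sgms1 and Gnpat. Between tissues limma called 0 of 9257 genes (0%) and 0 members, with 490 genes and 2 members, Elovl5 and Acsl3, at unadjusted p under 0.05, and edgeR called 0 genes (0%), with 445 at unadjusted p under 0.05. With mouse as a replicate block limma called 0 genes (0%), with 1450 genes and 11 members at unadjusted p under 0.05, and edgeR called 71 genes (0.767%) and 0 members. Elovl5 stood at difference −0.14 in log2, SE 0.04, limma adjusted p = 0.744, and Acsl3 at difference 0.10 in log2, SE 0.03, limma adjusted p = 0.833. With edgeR these were −0.33 and 0.18 in log2. In the edgeR fit with that block Acsl3 had the lowest adjusted p of the members, 0.0511.

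The difference between the genotypes was then compared between the tissues. No member passed, but 4 members, Cers2, Elovl1, Pex5l and Degs1, had unadjusted p under 0.05 in limma, all with a KO minus WT value that was lower in hippocampus than in cortex. For Cers2 the 2 hippocampus batches gave −0.04 and −0.04 and the 2 cortex batches 0.21 and 0.16 in log2 (hippocampus minus cortex difference −0.22 in log2, SE 0.03, limma adjusted p = 0.792). Pex5l stood at difference −0.20 in log2, SE 0.05, limma adjusted p = 0.792. Oligo1, with low Pex5l, made up 30.9% and 23.2% of KO hippocampus cells and 13.7% and 10.8% of KO cortex cells (mice 3 and 6). With Oligo1 left aside, the Pex5l values given above lay closer together between the tissues in each mouse pair. The part of Oligo1 was not tested. For all cells limma called 0 of 9257 genes (0%), with 574 genes at unadjusted p under 0.05, and edgeR was not run for this comparison.

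More genes set mice 4 and 6 apart from mice 1 and 3 than set the genotypes apart, and the members took part in both directions. Scd2, Fasn, Acss2, Fads1 and Slc25a1 were higher in all 4 libraries of mice 4 and 6, and Degs1, Hsd17b12 and Elovl1 were lower. Age and batch pair differ together between these pairs, and the comparison was chosen after the levels had been seen, so it was not tested. Scd2 differed by 0.57, 0.26, 0.48 and 0.22 in log2 in WT hippocampus, WT cortex, KO hippocampus and KO cortex, and Fasn by 0.28, 0.17, 0.19 and 0.17. Acss2 differed by 0.23, 0.14, 0.16 and 0.18 in log2 and Fads1 by 0.14, 0.12, 0.18 and 0.18. Slc25a1 differed by 0.18, 0.13, 0.12 and 0.16 in log2, and Degs1, the other way, by −0.18, −0.14, −0.15 and −0.24. In each of these genes the libraries of the pairs did not overlap. Mice 4 and 6 were above mice 1 and 3 without overlap for 10 of 37 members (19.4% of genes), Slc25a1, Acss2, Acaca, Fasn, Scd2, Fads1, Elovl6, Acsl1, Ugcg and Agps, and below for 3 (14.2% of genes). As sub-pathways, desaturation differed by 0.21 (0.14 to 0.29) in log2 and palmitate synthesis by 0.13 (0.10 to 0.19), both higher in mice 4 and 6 throughout.

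Genes around the synthesis routes were read in lists beside the members, apart from Elovl3, Sptlc3, Sptssb, Cert1 and Peds1, which were not analysed here under those names. Between the genotypes limma called 0 genes in each of the 6 lists given here, and 53.9% of all tested genes were higher in KO. In the lists 7 of 13 tested genes of lipogenic control were higher in KO, 10 of 16 of other fatty acid synthesis, 2 of 8 of other sphingolipid synthesis, 4 of 8 of ether lipids, 6 of 9 of uptake and binding and 8 of 12 of oxidation. Fabp5, a fatty acid carrier, had the largest difference, 0.28 in log2 (SE 0.07, limma adjusted p = 1.00), and it was higher in Oligo1 by 0.51 (0.34 to 0.63) in log2. The microglial markers Csf1r, Cx3cr1, Tmem119, C1qa, C1qb and C1qc were at 0 in at least 1 KO library, and their part in any result was not tested. Between clusters Mid1ip1, an activator of acetyl-CoA carboxylase, differed by −0.62 (−0.80 to −0.48) in log2, Oligo4 minus Oligo3, beside the lower Acaca. Gltp, a glycolipid carrier, was higher in Oligo2 than in Oligo3 by 0.60 (0.47 to 0.68) in log2, beside the higher Ugt8a and Gal3st1. Tmem189, the desaturase that completes plasmalogens, was higher in Oligo2 than in Oligo3 by 0.19 (0.09 to 0.28) in log2, as Far1 was and Pex5l was not.

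The values rest on 2 mice per genotype, so differences between genotypes of the size of most members could not be told from differences between mice. The main genotype fit also took no account of the age and batch pair of a mouse. With the age pair as a block still 0 members were called, and the lowest limma adjusted p of a member was 0.368. Counts come from the 3′ ends of transcripts, so single genes were not ranked by level, apart from the description of the members against the median gene. Transcript levels do not give enzyme activity or lipid content, and neither was read here. The paper measured lipids of KO and WT corpus callosum by mass spectrometry, and those values were not used. Clusters were taken as annotated, and they were drawn on the same expression values. The WT part of Oligo1, 6 cells, was not read. Members with few counts, among them Fads2, Acsl5, Acsl6, Cers4 and Me1, can show small differences in log2 whatever their true ratio, and differences in log2 are not fold changes for genes of middle level either.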

How the data were processed

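The expression values were deposited by the authors as log2 of the UMI count of a gene divided by the scran size factor of the cell, plus 1. The UMI count totals per cell were deposited by the authors as raw sums, and the size factor of each cell is a score the authors had computed with scran and deposited with the metadata. The submitters' processing notes name Cell Ranger 5.0.0 and the mm10 genome. The authors kept cells with at least 5000 UMIs and at most 10% mitochondrial UMIs, gated cells by scatter and assigned the clusters. No doublet caller was run here. Multiplying back by the size factors gave whole UMI counts for 100% of values above 0 within 0.001, and the totals differed from the deposited totals in 1317 cells, by at most 147 UMIs. The lowest total of a cell was 5039 UMIs. There were 21 barcodes seen in 2 libraries (42 cells), which were kept. All per-sample columns were used, with 0 left out.

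The members and lists were chosen with earlier results of these data known. The mouse was the replicate. The low-value filter asked for detection in 5% of cells or more, and the genes that passed it were tested with limma at 0.05 after Benjamini-Hochberg adjustment over all tested genes: genotype on means of the libraries of a mouse, tissue on libraries, and the genotype difference between tissues on differences within a mouse. Across 9257 genes the deviations of hippocampus and cortex libraries with the same mouse number correlated at 0.84 in WT and 0.85 in KO (n = 2 mice each), and the within-mouse correlation estimated by limma was −0.0995. Mice 1 and 3 differ from mice 4 and 6 in age and batch too, so these values do not show that libraries with the same number come from 1 animal, which was taken from the labels. Members were named where they kept 1 sign in all batches, libraries or mice, where a test gave unadjusted p under 0.05, or where their cluster difference was among the largest.

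Alternatives were edgeR on UMI sums, other filters and scales, cells thinned to 5000 UMIs, single tissues, subsets of clusters, an age block, a batch term with mouse as a random block, and leaving out 1 mouse. In that random block a negative within-mouse correlation was set to 0, a change made after a run on simulated data and after the data had been seen. The fits with 2 changes at once, the blocks within clusters and the comparison of mice 4 and 6 with mice 1 and 3 were also chosen after seeing the data. Each procedure was tested on simulated data. Gene coordinates came from GENCODE M21 and promoter windows from RefSeq on GRCm38.p6. Tools were R 4.3.3, limma 3.58.1, edgeR 4.0.16, Python 3.11.15, numpy 2.4.6, scipy 1.17.1, pandas 2.3.3 and matplotlib 3.10.9.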

Additional observations from a re-analysis of the deposited data

Results flagged for a closer look

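In 7 of 37 tested members (18.9%, against 932 of 9257 genes, 10.1%) KO minus WT had 1 sign in both hippocampus batches and the opposite sign in both cortex batches, which is a difference between groups of libraries and was taken up for that reason. Values are KO minus WT in log2, batches 3 and 5 for hippocampus and batches 4 and 6 for cortex, followed by the hippocampus mean minus the cortex mean. Cers2, for very long chain ceramides, had −0.04 and −0.04 in hippocampus and 0.21 and 0.16 in cortex, a difference of −0.221 in log2 (limma adjusted p = 0.792). Scd1, a desaturase, had −0.04 and −0.20 in hippocampus and 0.07 and 0.06 in cortex, a difference of −0.185 in log2 (limma adjusted p = 0.849). Elovl5, an elongase, had −0.02 and −0.09 in hippocampus and 0.10 and 0.08 in cortex, a difference of −0.143 in log2 (limma adjusted p = 0.818). In all cells together, with Oligo1 included, these genes had lower KO values in hippocampus and higher KO values in cortex. Kdsr, a ceramide reductase, had −0.02 and −0.07 in hippocampus and 0.02 and 0.03 in cortex, a difference of −0.0667 in log2 (limma adjusted p = 0.826). Acsl1, an acyl-CoA synthetase, had −0.02 and −0.03 in hippocampus and 0.01 and 0.02 in cortex, a difference of −0.0403 in log2 (limma adjusted p = 0.883). Sptlc1, a subunit of serine palmitoyltransferase, had −0.01 and −0.01 in hippocampus and 0.01 and 0.02 in cortex, a difference of −0.0288 in log2 (limma adjusted p = 0.818). Hacd3, the elongation dehydratase, had −0.01 and −0.01 in hippocampus and 0.01 and 0.01 in cortex, a difference of −0.0237 in log2 (limma adjusted p = 0.842). None passed the test between tissues, and apart from Cers2 and Scd1 every batch value lay within 0.1 of 0 in log2. Oligo1 made up 30.9% and 23.2% of KO hippocampus cells and 13.7% and 10.8% of KO cortex cells (mice 3 and 6). With Oligo1 left aside, batch 3 turned to 0.05 for Scd1, 0.02 for Elovl5 and 0.01 for Acsl1, which lost the pattern. Cers2, Kdsr, Sptlc1 and Hacd3 kept it, and the part of Oligo1 was not tested.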

How the results depend on the processing

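No member was called under any alternative, and 0 of the members' cluster differences with a shared direction turned with the scale or the depth. Of the main results 148 kept their side and size and 17 moved, and of the others 376 kept them, 100 moved and 13 reversed. The cause was not tested for any of these, beyond what the construction of an alternative shows. Genes called between genotypes, 0 in the main setting, were 2 with log2 of the mean plus 0.1, 1 with no filter, 8 with edgeR, 17 with edgeR and the age block, 4 with the batch term and 35 when the negative within-mouse correlation was kept, a fit that called too many unchanged genes in simulated data. Within Oligo2 they were 2 with log2 of the mean plus 0.1 and 4 with edgeR, within Oligo3 1 with log2 of the mean plus 0.1, 1 with no filter and 3 with edgeR, and within Oligo4 12 with log2 of the mean plus 0.1, 25 with edgeR and 1 with the batch term. Between tissues edgeR with the replicate block, paired by mouse, called 71 genes. With 1 mouse left out, KO minus WT in log2 ran from −0.0326 to 0.122 for Slc25a1 and −0.0359 to 0.145 for Acss2. It ran from −0.00879 to 0.114 for Acaca and −0.0212 to 0.189 for Tecr. For Scd2 it ran from −0.336 to 0.0776 and for Sgms1 from −0.0572 to 0.00623. The direction of each thus turned in a fit that also sets mice of different age and batch pairs against each other. Within batches each of these genes kept 1 sign. Against Oligo3 alone, Oligo1 differed by 0.0190 in log2 for Fa2h and 0.0139 for Ugt8a, with the sign turned. Members with 1 sign for Oligo1 numbered 25 or 29 with 1 KO mouse left out (63.1% and 65.3% of genes), against 16 (35.3% of genes). After thinning to 5000 UMIs the members with 1 sign numbered 18 instead of 25 for Oligo2 against Oligo3 (18% of genes instead of 25.8%), 14 instead of 19 for Oligo4 against Oligo3 (11.3% instead of 17.8%), 20 instead of 27 for Oligo4 against Oligo2 (17.2% instead of 24.6%) and again 16 for Oligo1 (29.8% instead of 35.3%). Of the members with 1 sign in the main setting, 17, 13, 18 and 13 kept it (68%, 68.4%, 66.7% and 81.2%), against 61.4%, 51.5%, 59.3% and 58.4% of such genes.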
